A study of Sus scrofa with 6 samples.

Results

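The 8 genes described here are the mitochondrially encoded subunits of respiratory complex I (ND1, ND2, ND3, ND4, ND4L, ND5 and ND6) and CYTB, the mitochondrially encoded subunit of complex III. They were found by pairing the pig Ensembl identifiers of the deposited table with gene symbols, and all 8 were among its 18225 genes. Messenger RNA was measured by poly(A)-selected, strand-marked RNA sequencing of brain, with 1 library per animal, from 3 Rongchang pigs, a domesticated Chinese breed, and 3 wild boars. All 6 animals were 210 days old, no treatment is given for either breed, and the labels name neither a brain region nor a sex. Values are FPKM, which scales fragments to transcript length and to all fragments mapped, so levels of different genes are compared per length.

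Complex I takes electrons from NADH, hands them to ubiquinone and pumps protons across the inner mitochondrial membrane, and complex III passes them on from ubiquinol to cytochrome c. The mitochondrial genome encodes the membrane-embedded core of complex I, while most other subunits are encoded in the nucleus and imported. Both strands of this circular genome are transcribed as long precursors that are then cut into separate RNAs, and ND6 is the one protein gene read from the other strand than the rest. Neurons have a high demand for the ATP that this chain supports.

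The FPKM of all genes summed to between 568921 and 687359 per library, and 16510 to 17090 genes lay above 0. FPKM values carry no read counts, so depth is unknown and no counting interval is given. Markers of brain cells were present in all libraries. The 4 neuronal markers found of 5 summed to between 1579 and 2273 FPKM in Rongchang and between 1507 and 2063 in wild boar, and the 4 astrocyte markers to between 857 and 1103 in Rongchang and between 876 and 1100 in wild boar. In each breed the library numbered 2 differed from the rest in several features, which are given beside the results they touch. What the number marks is not stated in the labels.

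Each of the 8 transcripts ranked among the most abundant of the whole table. By mean FPKM over the 6 libraries, ND3 ranked 7 of 18225 and the other 7 members held ranks 9 to 15. The 5 other mitochondrially encoded messenger RNAs, of complex IV (COX1, COX2 and COX3) and ATP synthase (ATP6 and ATP8), took ranks 1 to 5. The order of means among the 8 was ND3, ND4L, ND4, CYTB, ND1, ND6, ND2 and ND5.

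ND2, ND4 and ND5 are the antiporter-like subunits of the proton-pumping membrane arm. ND2 was at 6539, 5230 and 3414 FPKM in Rongchang pigs 1, 2 and 3, against 7743, 5950 and 5864 FPKM in wild boars 1, 2 and 3. Rongchang 3 was the lowest of the 6 and wild boar 1 the highest, and the breeds overlapped. ND4 was at 11703, 7542 and 6214 FPKM in Rongchang, against 13346, 7697 and 10366 FPKM in wild boar. Here the libraries numbered 2 of both breeds were close together and well below those numbered 1. ND5, the least abundant member, was at 3790, 4203 and 2342 FPKM in Rongchang, against 4543, 4532 and 3416 FPKM in wild boar, with Rongchang 3 again lowest.

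ND1 sits where the membrane arm meets the arm that carries electrons, next to the ubiquinone-binding site. It was at 7715, 6409 and 5225 FPKM in Rongchang, against 9734, 7696 and 7103 FPKM in wild boar. Rongchang 1 lay within the wild boar range, while Rongchang 2 and 3 lay below it. ND3, a small subunit with a loop near the same site, was the most abundant of the 8. It was at 20352, 11490 and 10822 FPKM in Rongchang, against 26046, 11551 and 16673 FPKM in wild boar. The libraries numbered 1 of both breeds were the highest for this gene, and the range from lowest to highest was 2.41-fold.

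ND4L is a small subunit translated, in mammals, from the same messenger as ND4. It was at 11950, 10510 and 7044 FPKM in Rongchang, against 13294, 11544 and 8674 FPKM in wild boar. In both breeds library 1 was highest and library 3 lowest. ND6, the light-strand gene, was at 5593, 8327 and 4383 FPKM in Rongchang, against 6617, 10668 and 6091 FPKM in wild boar. It was highest in the libraries numbered 2 of both breeds, where ND3 and ND4 were not. CYTB, which carries the quinone-binding sites of complex III, was at 10232, 7785 and 6684 FPKM in Rongchang, against 12136, 8882 and 10707 FPKM in wild boar. Rongchang 3 was lowest and wild boar 1 highest, and the breeds overlapped.

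**Figure D1:**
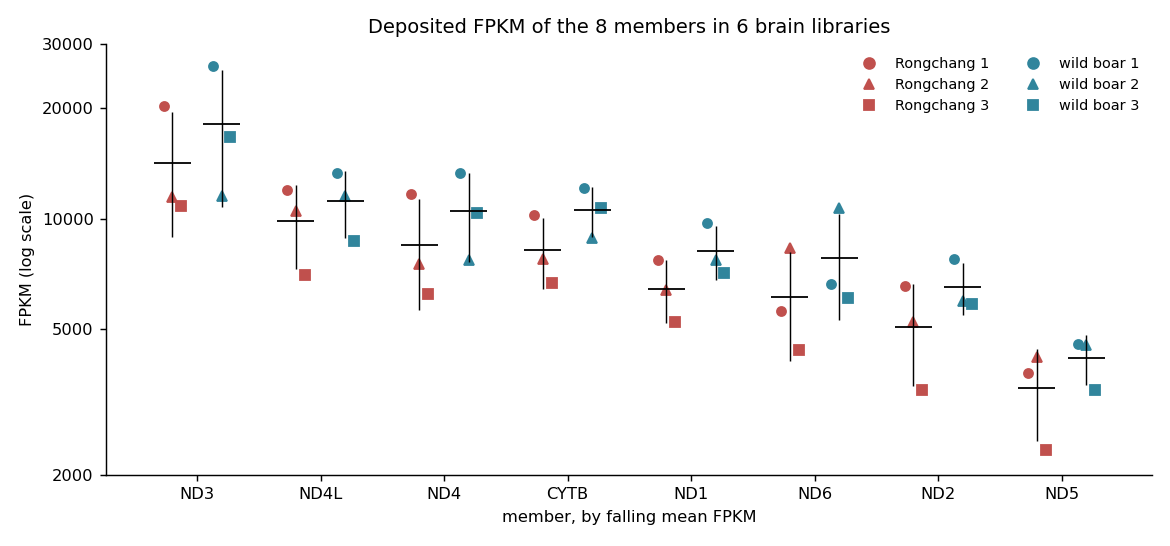
Deposited FPKM (log axis) of the 8 genes by library, ordered by falling mean, with Rongchang left of wild boar for each gene. Symbols give the label number, and black bars the mean ± SD of 3 libraries. ND3 lies highest, up to 26046 FPKM, and ND5 lowest, down to 2342 FPKM, and the breeds overlap for each gene.

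The order held in part across libraries. ND3 was above ND4L in 6 of 6 libraries, but by only 1.001-fold to 1.96-fold, and the ranges of the pair overlapped. ND3 was the most abundant member in all 6 libraries and ND5 the least abundant in all 6. CYTB was above ND1 in 6 of 6 libraries (1.15-fold to 1.51-fold), and ND2 above ND5 in 6 of 6 (1.24-fold to 1.73-fold). The remaining neighbours changed places. ND4L was above ND4 in 4 of 6, ND4 above CYTB in 2 of 6, ND1 above ND6 in 4 of 6 and ND6 above ND2 in 4 of 6. The mean log2 ratio of each of these pairs was smaller than its SD over the 6 libraries (0.17 against an SD of 0.32, −0.012 against 0.15, 0.11 against 0.43 and 0.25 against 0.45), so these neighbours were not ordered beyond their spread. ND3 and ND4L are the shortest of the 8 in the RefSeq annotation of assembly Sscrofa11.1, close to the selected cDNA length of about 320 bp. The correction of such short transcripts for fragment length was not stated, which makes their place in the order less certain.

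The rank of ND6 by FPKM differed with the label number. The libraries were poly(A)-selected, and whether ND6 was captured as well as the other members in each library was not tested. ND6 ranked 3 of the 8 in both libraries numbered 2, ranked 7 in both numbered 1 and ranked 6 in both numbered 3. As a share of the summed FPKM of the 8, ND6 took 7.18%, 13.5% and 9.50% in Rongchang 1, 2 and 3, against 7.08%, 15.6% and 8.84% in wild boar 1, 2 and 3. ND6 had the widest relative spread of the 8 in this share, with a coefficient of variation of 34.0% over 6 libraries, while that of ND1 was 5.27% and that of ND2 5.52%.

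Other members shifted with the number as well. ND3 made up 18.7% of the 8 in Rongchang 2 and 16.9% in wild boar 2, against 23.5% to 27.9% in the 4 libraries numbered 1 or 3. ND4 made up 12.3% in Rongchang 2 and 11.2% in wild boar 2, against 13.5% to 15.05% in the other 4. ND5 took 6.83% in Rongchang 2 and 6.61% in wild boar 2, against 4.86% to 5.08%. ND4L took 17.1% in Rongchang 2 and 16.8% in wild boar 2, against 12.6% to 15.3%. In these libraries ND3 and ND4 were low, and ND4L, ND5 and ND6 high, relative to the set. ND1 did not separate by number, at 10.4% and 11.2% in Rongchang 2 and wild boar 2 and 9.91% to 11.3% in the other 4.

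Several marker sums moved with the number too. The 1 skeletal muscle marker found of 5, ACTA1, was at 45.7 FPKM in Rongchang 2 and 47.3 FPKM in wild boar 2, and at 4.23 to 16.9 FPKM elsewhere. The 3 microglia markers found of 5 summed to 41.4 FPKM in Rongchang 2 and 30.2 FPKM in wild boar 2, against 54.1 to 70.5 FPKM elsewhere. The 4 erythroid markers found of 5 summed to 68.5 FPKM in Rongchang 2 and 58.5 FPKM in wild boar 2, against 140 to 276 FPKM elsewhere. No marker found was at 0 in all libraries. The part of these differences in the make-up of the 8 was not tested.

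**Figure D2:**
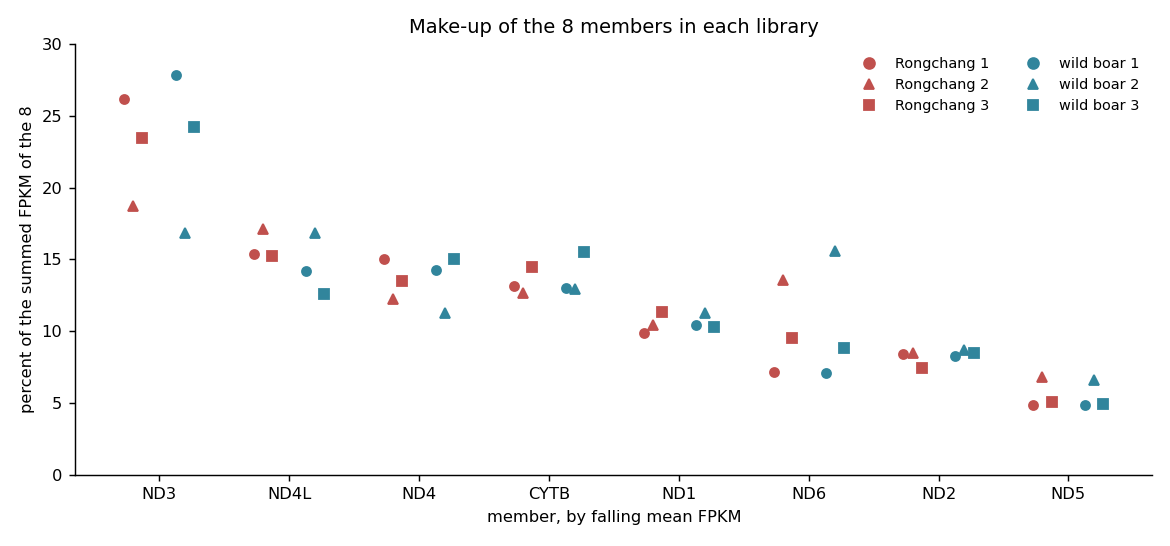
Share of each gene in the summed FPKM of the 8, in percent, by library, with Rongchang left of wild boar for each gene. Triangles are the libraries numbered 2. ND6 lies at 13.5% and 15.6% in those libraries and between 7.08% and 9.50% in the other 4, and ND3 at 18.7% and 16.9% against 23.5% to 27.9%.

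Ratios within a library do not depend on how libraries are scaled, and 3 were compared between the breeds together with the share of all FPKM. ND6 stood at 0.608, 1.16 and 0.813 times the geometric mean of the 7 heavy-strand members in Rongchang, against 0.603, 1.35 and 0.752 times in wild boar. The log2 ratio averaged −0.27 ± 0.46 in Rongchang and −0.23 ± 0.60 in wild boar (SD, n = 3 each), a difference of −0.034 (exact permutation test, two-sided, p = 1.0). That difference turned to 0.19 without Rongchang 1, to 0.30 without wild boar 2 and to 0.063 without both libraries numbered 2. Within the numbers, Rongchang minus wild boar was 0.013 for number 1, −0.23 for number 2 and 0.11 for number 3. The ratio was below 1 in the 4 libraries numbered 1 or 3 and above 1 in both numbered 2.

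ND6 and ND5 overlap at their ends in the RefSeq annotation and are read from opposite strands. The libraries kept the strand. The strand setting of the quantification was not stated, and without it reads of ND6 and of antisense RNA at that place cannot be told apart. ND4L and ND4 also neighbour each other with an overlap, and reads there can be assigned to either.

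The log2 ratio of ND4L over ND4 was 0.030, 0.48 and 0.18 in Rongchang 1, 2 and 3, against −0.0057, 0.58 and −0.26 in wild boar 1, 2 and 3. It averaged 0.23 ± 0.23 in Rongchang and 0.11 ± 0.43 in wild boar (SD, n = 3 each; difference 0.12, exact permutation test, two-sided, p = 0.7). It was highest in the libraries numbered 2 of both breeds, and the sign of the breed difference turned to −0.0019 without Rongchang 2 and to −0.060 without wild boar 3. CYTB was at 1.21, 1.07 and 1.32 times the geometric mean of the 7 complex I members in Rongchang, against 1.21, 1.10 and 1.43 times in wild boar. CYTB was thus above that mean in 6 of 6 libraries, and lowest against it in those numbered 2. Its log2 ratio averaged 0.26 ± 0.15 in Rongchang and 0.31 ± 0.20 in wild boar (SD, n = 3 each; difference −0.049, exact permutation test, two-sided, p = 0.8), and the difference turned to 0.030 without Rongchang 2 and to 0.056 without wild boar 3.

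The 8 transcripts made up 12.9%, 10.8% and 8.05% of all FPKM in Rongchang 1, 2 and 3, against 13.6%, 11.8% and 11.4% in wild boar 1, 2 and 3. In bulk tissue, fewer cells rich in this RNA and less of it per cell cannot be told apart. Rongchang 3 was the lowest library, and the breeds overlapped. The mean was 10.6% ± 2.43 in Rongchang and 12.3% ± 1.17 in wild boar (SD, n = 3 each), a difference of −1.68 percentage points (two-sided exact permutation test, p = 0.4). With 3 against 3 animals this test cannot go below 0.1. Within the numbers the difference was −0.70, −1.02 and −3.32 percentage points, lower in Rongchang in each. Without Rongchang 3 it was −0.41 points, without wild boar 1 −1.02 and without Rongchang 1 −2.84. Adjusted over the 4 comparisons of shares and ratios, p was 1.0 for each.

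The share of ND3 in all FPKM was 2.43% ± 0.82 in Rongchang and 2.85% ± 0.90 in wild boar (SD, n = 3 each). ND4L made up 1.69% ± 0.40 in Rongchang and 1.79% ± 0.31 in wild boar, and ND4 1.45% ± 0.44 in Rongchang and 1.66% ± 0.31 in wild boar. CYTB made up 1.41% ± 0.27 in Rongchang and 1.69% ± 0.13 in wild boar. These 4 transcripts held most of the share of the 8. ND1, ND6 and ND2 took 1.11% ± 0.18, 1.05% ± 0.37 and 0.87% ± 0.25 in Rongchang, against 1.31% ± 0.12, 1.27% ± 0.50 and 1.04% ± 0.080 in wild boar. ND5 took 0.59% ± 0.17 in Rongchang and 0.67% ± 0.11 in wild boar.

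The denominator of these shares holds 7 genes without a symbol and with a mean of at least 2000 FPKM, which together took between 5.42% and 11.1% of FPKM depending on the library. Set against the genes that are not mitochondrially encoded messenger RNAs instead, the difference of the 8 was −4.24 percentage points (exact permutation test, p = 0.4). Within the 13 mitochondrial messenger RNAs the 8 held a steadier part. They made up 28.5%, 27.1% and 26.8% of the FPKM of the 13 in Rongchang, against 29.0%, 28.9% and 26.1% in wild boar.

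**Figure D3:**
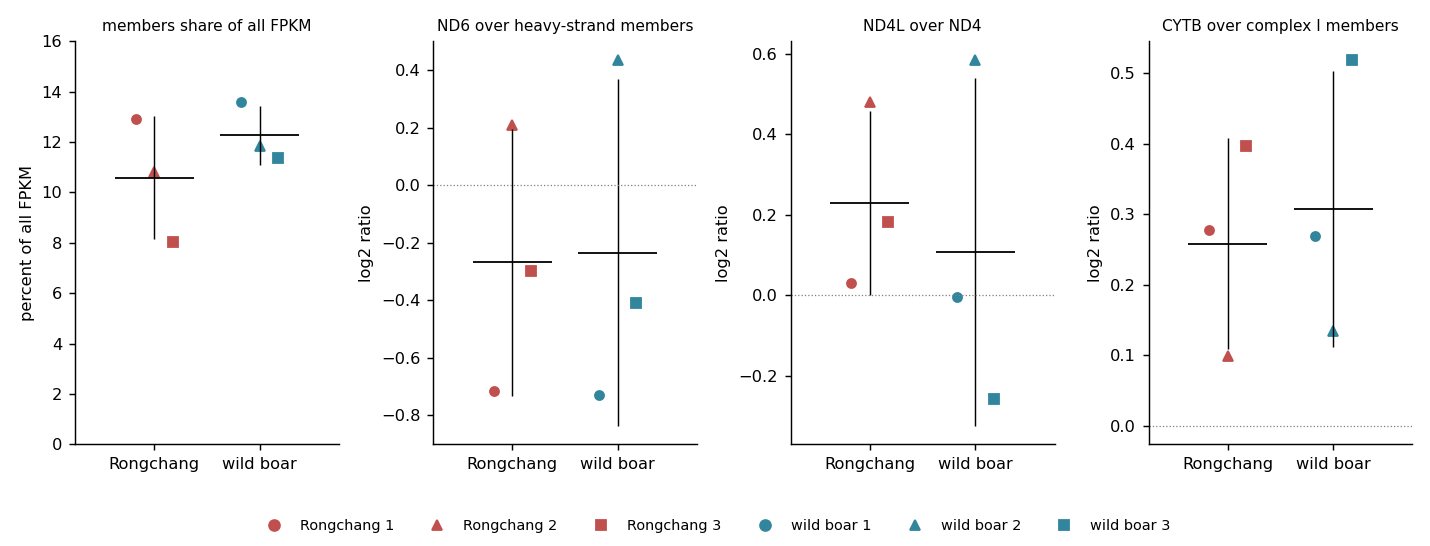
The 4 within-library measures compared between Rongchang (left) and wild boar (right). Points are libraries, with the label number as symbol, and black bars the mean ± SD of 3. The first axis is in percent of all FPKM and starts at 0, and the others are log2 ratios. The breeds overlap in each panel, and the triangles, libraries numbered 2, lie highest for ND6 and for ND4L over ND4.

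In the fit across all genes, none of the 8 was called different between the breeds (limma on log2(FPKM + 1), 0 of 8 at an adjusted p under 0.05 and 0 of 8 at an unadjusted p under 0.05). Of the 13152 genes tested, which included all 8, limma called 0.00760%, and 0.578% were lower in Rongchang at an unadjusted p under 0.05. The estimates of all 8 were below 0, that is lower in Rongchang, while 22.1% of genes tested lay below 0. That share depended on the scaling, at 54.7% after each library was scaled to the same median, 51.7% after quantile normalization and 12.1% with libraries scaled to the same total. The exceptions under other processing were ND4L, above 0 after quantile normalization, with library weights and without Rongchang 3, and ND6, at 0 after quantile normalization. The difference was largest for ND2, at −0.40 ± 0.35 (SE, log2; adjusted p = 0.857), followed by CYTB at −0.37 ± 0.35 (adjusted p = 0.857). It was smallest for ND4L, at −0.20 ± 0.38 (adjusted p = 0.917).

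The other members lay between these. The log2 difference was −0.36 ± 0.39 (SE) for ND6 and −0.35 ± 0.33 for ND1. It was −0.33 ± 0.46 for ND3, −0.32 ± 0.40 for ND4 and −0.30 ± 0.33 for ND5, and the adjusted p of the 5 ran from 0.857 to 0.889. The SE was about as large as the difference or larger for each except ND2, CYTB and ND1, where it was slightly smaller. The breeds overlapped in FPKM for each of the 8 (0 of 8 did not overlap), where 12.5% of the genes tested showed no overlap in either direction and 1.12% lay wholly lower in Rongchang.

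The median of the 8 differences was −0.34, while the median over all genes tested was 0.13, so that relative to the median gene the 8 lay at −0.47. After each library was scaled to the same median, which moved the median over all genes to −0.020, the median of the 8 was −0.49 and again none was called (limma, 0 of 8 at an adjusted and 0 of 8 at an unadjusted p under 0.05). After quantile normalization it was −0.079. Single libraries moved this value. The median of the 8 was −0.14 without Rongchang 3, −0.23 without wild boar 1 and −0.51 without Rongchang 1. The 2 endothelial markers found of 5 were PECAM1 and TIE1. They summed to between 12.1 and 15.8 FPKM in Rongchang and between 16.5 and 19.7 FPKM in wild boar. No other marker sum lacked overlap between the breeds. Of the single genes tested, 12.5% showed no overlap in either direction and 1.12% lay wholly lower in Rongchang. The part of the endothelial difference in the differences of the 8 was not tested.

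The labels do not pair the animals, and the pairing by number was taken from correlations in these same data. Compared within the label numbers, each member was lower in Rongchang than in the wild boar of the same number, in 24 of 24 comparisons. Thus 8 of 8 members were lower in all 3 numbers. Of all genes tested, 5.10% were lower in Rongchang in all 3. These counts were taken on unscaled values and were not computed after median scaling, where the share of genes below 0 in the fit was 54.7% instead of 22.1%. For ND1 the log2 ratio of Rongchang over wild boar was −0.34 for number 1, −0.26 for number 2 and −0.44 for number 3. For ND6 it was −0.24, −0.36 and −0.47. For ND3 it was −0.36, −0.0077 and −0.62, and for ND4 −0.19, −0.029 and −0.74, so that number 2 showed hardly any difference and number 3 the largest.

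With the label number as a block in the fit, which rests on the same pairing, the differences were the same in size and their SE smaller. None of the 8 was called (limma, 0 of 8 at an adjusted p under 0.05, where 0.00760% of genes were called). At an unadjusted p under 0.05, 3 of 8 were lower in Rongchang, where 1.41% of genes were. After median scaling the same block gave 5 of 8 (ND1, ND2, ND5, ND6 and CYTB), where 5.44% of genes were, and again 0 of 8 were called (limma, adjusted p from 0.451 to 0.512). Without that scaling the 3 were ND6 at −0.36 ± 0.13 (SE; unadjusted p = 0.0339, adjusted p = 0.267), ND1 at −0.35 ± 0.13 (unadjusted p = 0.0370, adjusted p = 0.272) and ND2 at −0.40 ± 0.16 (unadjusted p = 0.0483, adjusted p = 0.285) in limma. The 8 are cut from shared precursors and come from the same libraries, so their counts are not 8 independent observations.

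**Figure D4:**
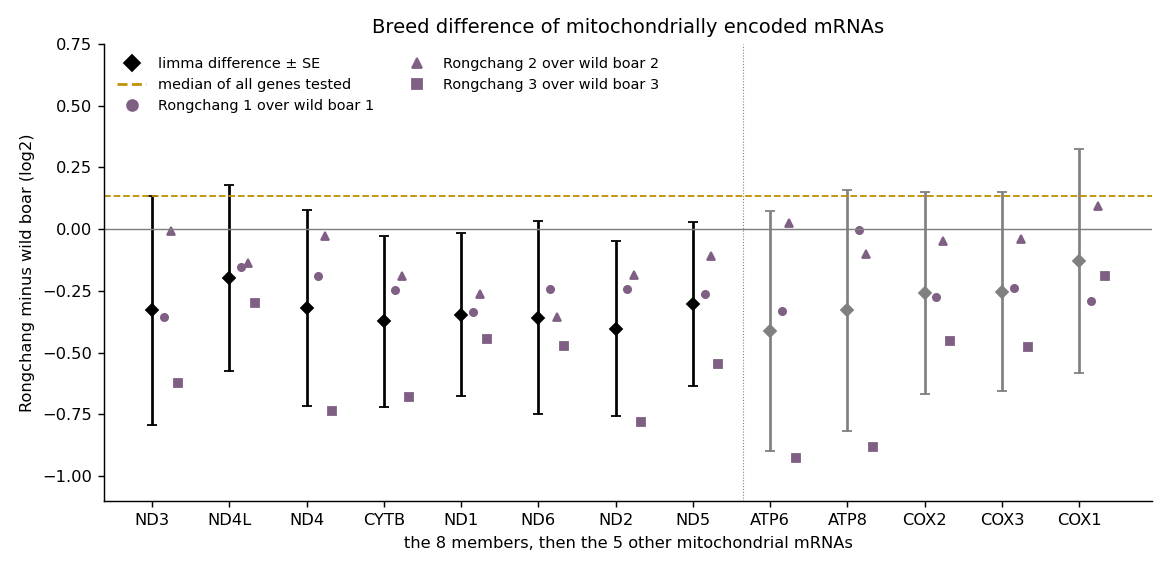
Log2 difference, Rongchang minus wild boar, of the 8 genes (black) and of the 5 other mitochondrial messenger RNAs (grey). Diamonds with bars are the limma difference ± SE, small symbols the log2 ratio within each label number, and the dashed line the median of all genes tested, at 0.13. All 13 diamonds lie below 0 in this fit. The sign is not kept in all alternatives by ND4L (above 0 after quantile normalization, with library weights or without Rongchang 3), ND6 (at 0 after quantile normalization), or COX1, COX2, COX3, ATP6 and ATP8 (in 1 or more of quantile normalization and leaving out Rongchang 2, Rongchang 3 or wild boar 1).

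The 5 other mitochondrially encoded messenger RNAs gave like values. Their median difference was −0.26, and all 5 lay below 0, except that COX1 turned to 0.057 without Rongchang 2 and 0.083 without wild boar 1, ATP8 to 0.016 without Rongchang 3, and only ATP8 stayed below 0 after quantile normalization. By limma 0 of 5 were called (0 at an unadjusted p under 0.05). ATP6, a proton-channel subunit of ATP synthase, was at 57068, 47121 and 31223 FPKM in Rongchang, against 71862, 46338 and 59344 FPKM in wild boar (log2 difference −0.41 ± 0.49, SE). ATP8, another ATP synthase subunit, averaged 40680 ± 14497 FPKM in Rongchang and 48645 ± 4540 FPKM in wild boar, and COX2, which takes electrons from cytochrome c, 26639 ± 4119 FPKM in Rongchang and 31957 ± 5565 FPKM in wild boar (SD, n = 3 each). Of the 15 within-number comparisons of these 5 genes, 13 were lower in Rongchang.

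None of the nuclear partners of the 8 that were tested was called. Of 37 nuclear complex I subunits, 20 were matched and tested. Of these 15 lay above 0 and 5 below, with a median difference of 0.12, where that of all genes was 0.13 (−0.033, with 9 above 0 and 11 below, after median scaling), and 0 were called in limma (0 at an unadjusted p under 0.05). Single libraries turned this median, to −0.070 without Rongchang 3 (4 above 0, 16 below) and −0.023 without wild boar 2 (9 above 0, 11 below), while without Rongchang 2 it was 0.30 (19 above 0, 1 below). The most abundant, NDUFB1, averaged 221 ± 70.8 FPKM in Rongchang and 250 ± 81.8 FPKM in wild boar (SD, n = 3 each; log2 difference −0.18). NDUFV1, which binds NADH and the flavin at the tip of the complex, averaged 71.4 ± 19.99 FPKM in Rongchang and 57.4 ± 7.11 FPKM in wild boar (0.28). The accessory subunit NDUFB7 averaged 120 ± 34.7 FPKM in Rongchang and 92.7 ± 23.6 FPKM in wild boar (0.36), and NDUFA6 2.90 ± 1.82 FPKM in Rongchang and 3.77 ± 0.26 FPKM in wild boar (−0.41).

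Of 9 nuclear complex III subunits, 6 were tested, with a median difference of 0.21 (0.058 after median scaling) and 5 above 0 (limma, 0 called, 0 at an unadjusted p under 0.05). The most abundant, UQCR11, averaged 198 ± 75.3 FPKM in Rongchang and 158 ± 50.6 FPKM in wild boar (log2 difference 0.30). The Rieske iron-sulfur protein UQCRFS1, the electron carrier next to CYTB, averaged 50.1 ± 6.09 FPKM in Rongchang and 42.9 ± 4.92 FPKM in wild boar (0.22). The core protein UQCRC2 was at 29.8, 29.5 and 31.9 FPKM in Rongchang, against 20.5, 24.7 and 27.0 FPKM in wild boar, without overlap (0.34, adjusted p = 0.789 in limma). It was named for a small unadjusted p within its list, and 12.5% of the genes tested showed no overlap in either direction.

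Complex I is built with dedicated assembly factors, of which 11 of 16 were tested. Their median difference was 0.19 (0.036 after median scaling), with 8 above 0, 0 called in limma and 2 higher in Rongchang at an unadjusted p under 0.05, where 5.42% of all genes tested were. After median scaling 0 of the 11 passed that p. The 2 were NDUFAF1, at 19.6, 16.5 and 18.2 FPKM in Rongchang against 14.7, 12.9 and 14.4 FPKM in wild boar (log2 difference 0.35), and ACAD9, at 9.26, 8.54 and 11.2 FPKM in Rongchang against 7.91, 7.08 and 6.86 FPKM in wild boar (0.36). Both act together in assembling the membrane arm that holds the ND subunits, and their adjusted p was 0.789 in limma. NDUFAF7, a methyltransferase that modifies a core subunit, averaged 5.58 ± 0.19 FPKM in Rongchang and 4.26 ± 0.55 FPKM in wild boar (0.33), and NDUFAF3, the most abundant, 21.5 ± 11.5 FPKM in Rongchang and 18.5 ± 7.87 FPKM in wild boar (0.14). Of 6 complex III assembly factors, 2 were tested and 0 called (limma, 0 at an unadjusted p under 0.05). TTC19 averaged 12.2 ± 1.09 FPKM in Rongchang and 12.2 ± 1.61 FPKM in wild boar, and UQCC2, which acts on newly made cytochrome b, 9.53 ± 3.25 FPKM in Rongchang and 8.58 ± 2.37 FPKM in wild boar.

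The machinery that makes and keeps mitochondrial RNA was likewise not called. Of 9 genes of mitochondrial transcription, 5 were matched and 4 tested, with a median difference of 0.15 (−0.0044 after median scaling), 0 called in limma and 1 higher in Rongchang at an unadjusted p under 0.05 (0 after median scaling), where the share of all genes was again 5.42%. That gene, MTERF1, whose product binds the mitochondrial genome at a terminator site, was at 2.69, 2.23 and 2.28 FPKM in Rongchang, against 1.59, 1.39 and 1.48 FPKM in wild boar, without overlap (log2 difference 0.45 ± 0.14, SE; adjusted p = 0.784 in limma). No overlap in either direction was seen for 12.5% of the genes tested. MTERF3, of the same family, averaged 7.68 ± 1.63 FPKM in Rongchang and 6.54 ± 0.60 FPKM in wild boar (0.19), and the transcription initiation factor TFB2M 4.07 ± 0.80 FPKM in Rongchang and 3.70 ± 0.68 FPKM in wild boar (0.11).

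Of 20 genes of mitochondrial RNA processing and stability, 17 were tested, 14 lay above 0, the median difference was 0.18 (0.025 after median scaling) and 0 were called in limma (0 at an unadjusted p under 0.05). SLIRP, the partner of LRPPRC in keeping mitochondrial messengers stable, averaged 110 ± 36.1 FPKM in Rongchang and 112 ± 33.2 FPKM in wild boar (log2 difference −0.038). SUPV3L1, the helicase of the mitochondrial RNA-degrading complex, was at 3.21, 3.36 and 3.63 FPKM in Rongchang, against 2.24, 2.86 and 2.53 FPKM in wild boar, without overlap (0.32, adjusted p = 0.789 in limma). GRSF1, an RNA-binding protein of mitochondrial RNA granules known in human cells to bind the light-strand ND6 transcript, was at 25.8, 25.7 and 24.5 FPKM in Rongchang, against 20.6, 21.9 and 22.8 FPKM in wild boar, also without overlap (0.21, adjusted p = 0.826 in limma). ANGEL2 averaged 10.9 ± 0.79 FPKM in Rongchang and 9.35 ± 1.10 FPKM in wild boar (0.21). SUPV3L1 and GRSF1 were named for a small unadjusted p within the list, and 12.5% of the genes tested showed no overlap in either direction.

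The medians of the 6 nuclear lists moved with single libraries. They lay between −0.087 and 0.080 without Rongchang 3, where the subunits of both complexes and the complex III assembly factors were below 0, and between 0.18 and 0.40 without Rongchang 2.

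**Figure D5:**
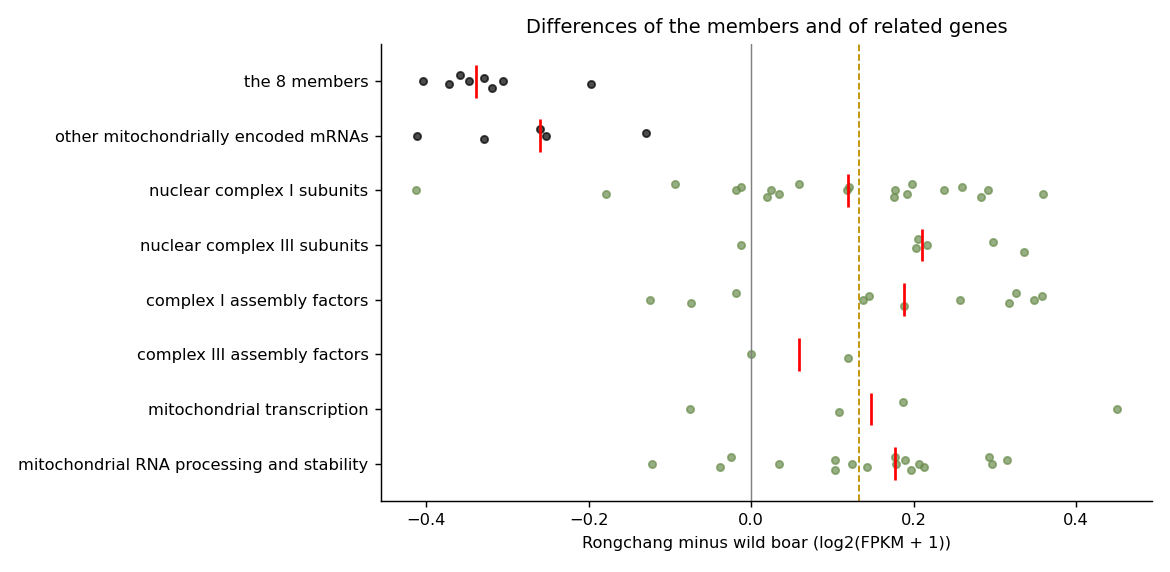
Log2 difference, Rongchang minus wild boar, of each tested gene of the 8, the 5 other mitochondrial messenger RNAs and 6 lists of related nuclear genes. Points are genes, red bars list medians, and the dashed line the median of all genes tested, at 0.13. The 8 have a median of −0.34, and the nuclear lists lie between 0.059 and 0.21. After median scaling the nuclear lists lie between −0.093 and 0.058, and without Rongchang 3 between −0.087 and 0.080. ND4L lies above 0 after quantile normalization, with library weights or without Rongchang 3.

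The profile of the 8 over the 6 libraries was compared with those of 8530 other genes with a symbol. Averaged over the 8, log2(FPKM + 1) lay at 0.15, −0.084 and −0.56 around its mean in Rongchang 1, 2 and 3, and at 0.41, 0.076 and 0.0091 in wild boar 1, 2 and 3. Likeness was the root mean square difference from this profile, in log2 units, and the median gene lay 0.41 away. Among the members, ND1 (0.061) and ND2 (0.076) lay nearest to the common profile and ND6 (0.38) and ND3 (0.30) farthest. The other mitochondrial genes lay at 0.14 for COX3, ATP6 and COX2, at 0.21 for ATP8 and at 0.39 for COX1.

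The 5 nearest genes were nuclear, nearer than any of the 5 other mitochondrial messenger RNAs. They were the nearest of 8530 compared over 6 libraries, and no test is attached to the likeness. ITGA6, the alpha subunit of a laminin-binding integrin, lay 0.021 away, at 19.2, 16.5 and 11.6 FPKM in Rongchang against 23.5, 17.9 and 17.8 FPKM in wild boar. It was also nearer than each of the 8 themselves. CPNE3, a calcium-dependent membrane-binding protein, lay 0.074 away, at 7.44, 6.59 and 4.68 FPKM in Rongchang against 8.52, 7.04 and 6.51 FPKM in wild boar. The coagulation factor gene F5 lay 0.085 away, at 29.4, 27.4 and 16.8 FPKM in Rongchang against 32.2, 26.0 and 25.8 FPKM in wild boar. The calcium-activated chloride channel ANO2 followed at 0.094 and the endothelin receptor EDNRB at 0.099. EDNRB was low, at 1.68, 1.03 and 0.80 FPKM in Rongchang against 2.23, 1.38 and 1.26 FPKM in wild boar. At such levels log2(FPKM + 1) understates changes, so its likeness rests in part on that scale. ITGA6, CPNE3 and F5 were lowest in Rongchang 3 and highest in wild boar 1, which follows largely from choosing them by likeness to the mean profile of the 8.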

How the data were processed

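The deposited table holds 1 value per gene and library, judged to be FPKM as the authors' unit from the tools named and from decimal values with exact zeros. TopHat2 2.0.11, Cufflinks 2.2.1 and Cuffdiff are named, per the submitters' processing notes, without role or order. The genome build, the annotation and any scaling between libraries were not stated in labels or headers. Symbols were found for 10937 of 18225 identifiers (60.0%), and a symbol on several identifiers went to the one with the highest mean. Nuclear copies of mitochondrial sequence can share reads with the 8 genes.

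The test covered genes that reached 1 FPKM in 3 or more of 6 libraries. They were compared as Rongchang minus wild boar on log2(FPKM + 1), a scale that understates changes of low genes, with limma 3.58.1 in R 4.3.3 (trend, two-sided, Benjamini-Hochberg over all genes, threshold 0.05). The procedure was run on simulated data in which each gene varied independently. Shifts shared by a whole library were not simulated, so the run does not bear on the calls made here. Shares and ratios were tested by exact permutation (scipy 1.17.1). Nothing says how animals were sampled, and p-values cover only the spread among these libraries, which may be technical. The genes, lists and tests were chosen with earlier results of these data known. Genes named from a list are its most abundant and up to 3 with the smallest unadjusted p, and like genes are the 5 nearest in profile. A list member without a matched symbol was not analysed here.

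Deviations from the breed means of same-numbered libraries had correlations of 0.283, 0.587 and 0.368. Each exceeds the pairing bound of 0.1, while Rongchang 1 with wild boar 3 reached 0.125. The pairing comes from the data, since the labels only number the libraries. Alternatives were other pseudocounts, filters and scalings, library weights, the block, and leaving out libraries.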

Additional observations from a re-analysis of the deposited data

How the results depend on the processing

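For the 8 genes, 140 of 144 differences over 18 alternatives stayed below 0 and none passed the threshold (limma, adjusted p from 0.267 to 1.0). ND4L turned to 0.10 after quantile normalization, to 0.0098 with library weights and, leaving out single libraries, ranged from −0.37 to 0.027, while ND6 was 0 after quantile normalization. Quantile normalization sets all libraries to 1 common distribution, and these genes hold its top ranks. What caused these changes, after quantile normalization or with library weights, was not tested. The share of the 8 kept its sign in all 11 alternatives. Leaving out single libraries, the difference ranged from −0.28 to 0.30 for ND6 over the heavy-strand members (0.063 without both libraries numbered 2), from −0.060 to 0.36 for ND4L over ND4 and from −0.14 to 0.056 for CYTB over the complex I members. Over all genes, limma called 1, against 0 with a mean of at least 5 FPKM (405 at an unadjusted p under 0.05), 3 with a pseudocount of 0.1, 5 with libraries scaled to the same total, 3 without both libraries numbered 2 and 1 to 4 leaving out single libraries. For the 7 related lists, 70 alternatives were compared, which did not include quantile normalization or library weights. In these the medians moved by less than the within-breed SD of the libraries' own list medians (0.15 to 0.50, log2). Beyond them, quantile normalization took the other mitochondrial messenger RNAs from −0.26 to 0, past their SD of 0.23. Library weights took the complex I assembly factors from 0.19 to 0.021, past their SD of 0.16. Signs still turned: without Rongchang 3 for complex I subunits (−0.070), complex III subunits (−0.018) and complex III assembly factors (−0.087), without wild boar 2 for complex I subunits (−0.023), and after median scaling for complex I subunits (−0.033), complex III assembly factors (−0.093) and transcription (−0.0044). Quantile normalization turned complex I subunits (−0.027) and complex III assembly factors (−0.088) too. Leaving out both libraries numbered 2 for these lists was chosen after seeing the data. With the replicate block limma called 1 gene, and the sign-flip p of the share was 0.25, the smallest that 3 pairs can give. The choice of a denominator without other genes over 2000 FPKM (difference −4.40 percentage points) was made after seeing the data. Depth is unknown.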

Other observations

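Among the other mitochondrial messenger RNAs, COX1, the catalytic subunit of complex IV, and ATP8 separated by label number, in opposite directions. COX1 was at 29444, 19014 and 26577 FPKM in Rongchang 1, 2 and 3, against 36069, 17799 and 30298 FPKM in wild boar 1, 2 and 3. It was lowest in both libraries numbered 2, where ND6 was highest. ATP8 was highest there, at 49730 FPKM in Rongchang 2 and 53292 FPKM in wild boar 2, against 23959 to 48426 FPKM elsewhere. Within number 2 COX1 was higher in Rongchang than in wild boar (log2 ratio 0.095), as was ATP6 (0.024), unlike each of the 8 genes described above.

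Some highly abundant genes without a symbol were unstable between libraries. ENSSSCG00000024853 was listed at 0 in Rongchang 1 and at 14795 and 18470 FPKM in Rongchang 2 and 3, against 13311, 33455 and 6481 FPKM in wild boar 1, 2 and 3. ENSSSCG00000018734 was listed at 0 in all 3 Rongchang libraries and in wild boar 2 and 3, and at 21080 FPKM in wild boar 1. Both enter the denominator of a share of all FPKM, and both were chosen after their values were seen.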
